A study of Rattus norvegicus with 12 samples.

Results

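The genes described here are 7 genes of homeostatic microglia and of the wider myeloid lineage, namely Csf1r, Cx3cr1, P2ry12, Aif1, Itgam, Ptprc and Spi1. They were chosen by symbol, and every array probe whose transcript accession mapped to one of them was used. That gave 9 of 41012 probes, with 3 for Ptprc and 1 for each of the others, among 12206 genes that could be named. All 9 were among the 28523 probes tested, a probe being tested where some group had it well above background in all 3 pups. The 3 Ptprc probes met that condition only in injured groups, so their place among the tested probes already required a difference, while the other 6 probes met it in control groups as well.

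Expression was measured in the cerebral cortex of Wistar rat pups on 12 single-colour Agilent arrays, 1 pup per array. Injured pups (the Rice model of hypoxic-ischemic brain damage in the newborn) had the left carotid artery tied and cut when 7 days old and were later kept for 1 h in 8% oxygen. Control pups had no such insult. Pups of either kind were injected with saline (100 µl) or with MCI-186 (edaravone, a free radical scavenger) at 9 mg per kg, into the peritoneum, and in injured pups the injection was given again after 30 min. The 4 groups are therefore Control with saline, Control with MCI-186, Rice with saline and Rice with MCI-186, with 3 pups in each. Cortex came from the ligated side, or from the same side in controls, and the labels give an age of 2 weeks for all pups and no other time of collection.

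Microglia are the resident macrophages of the brain. They depend on signalling through the receptor CSF1R, and the transcription factor PU.1, which Spi1 encodes, sets up their gene programme as it does in other myeloid cells. In the resting brain microglia are marked by CX3CR1, which binds the neuronal chemokine fractalkine, and by P2RY12, a receptor for ADP that guides their processes to sites of damage. P2RY12 is the member most closely tied to microglia in their resting state, and in mouse its expression is known to be lost when microglia become activated. Aif1 (Iba1), Itgam (CD11b) and Ptprc (CD45) are shared by microglia with blood-borne macrophages, and the latter pair also with neutrophils and, for Ptprc, with all white blood cells.

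Signals are given as log2 of the probe's processed signal over the 75th percentile signal of its array, so 0 is a signal equal to that percentile and a step of 1 is a doubling. The 75th percentile lay between 920 and 1258 scanner units, and 65.1% to 73.7% of the spots on an array were well above background. Pups of one group correlated at 0.982 to 0.995, and precision is limited by there being 3 arrays a group. The 4 groups were hybridised on 4 slides, 1 slide a group, so slide and group cannot be told apart, and the saline and MCI-186 arms rest on different slides. Of the cortical excitatory neuron genes, all 11 with a named probe were well above background in controls, as were the 7 astrocyte genes. In bulk tissue a higher signal can come from more cells of a type or from more RNA per cell, and these cannot be told apart here.

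All 7 genes were higher in injured cortex than in control cortex, in saline pups and in MCI-186 pups alike. The factor Spi1 and the calcium-binding Aif1 rose by more than 5-fold in both arms, Csf1r and Cx3cr1 by between 4.43-fold and 4.80-fold, Itgam by more than 3-fold and P2ry12 by 1.74-fold, and Ptprc by 2.52-fold or more at each of its probes. The sizes for Spi1 and Ptprc, which were not well above background in every control, depended on the background correction, with normexp log2 changes of 1.31 and 1.41 for Spi1 and between 0.42 and 1.04 for the Ptprc probes. All 9 probes passed limma's adjusted threshold of 0.05 as higher in each arm. The 3 Ptprc probes were tested only through injured groups, so their part in this and the following counts was partly set in advance. The other 6 probes, also well above background in a control group, all passed in each arm. Over all tested probes 19.4% were called higher and 30.1% lower in saline pups (49.5% either way), and 20.4% higher and 31.4% lower in MCI-186 pups (51.8%). Within each arm injured and control pups did not overlap at any of the 9 probes, as at 22.4% of all tested probes with saline and 24.8% with MCI-186 in this direction. The 6 injured pups lay above all 6 controls at each of the 9, which held for 16.9% of all tested probes. Measured changes of at least 4-fold that passed the threshold were seen for Csf1r, Cx3cr1, Aif1 and Spi1 in both arms, against 3.76% and 4.13% of all tested probes. The median log2 change of the 9 probes was 2.17 with saline and 2.26 with MCI-186, beside medians of -0.14 over all tested probes in either arm.

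**Figure D1:**
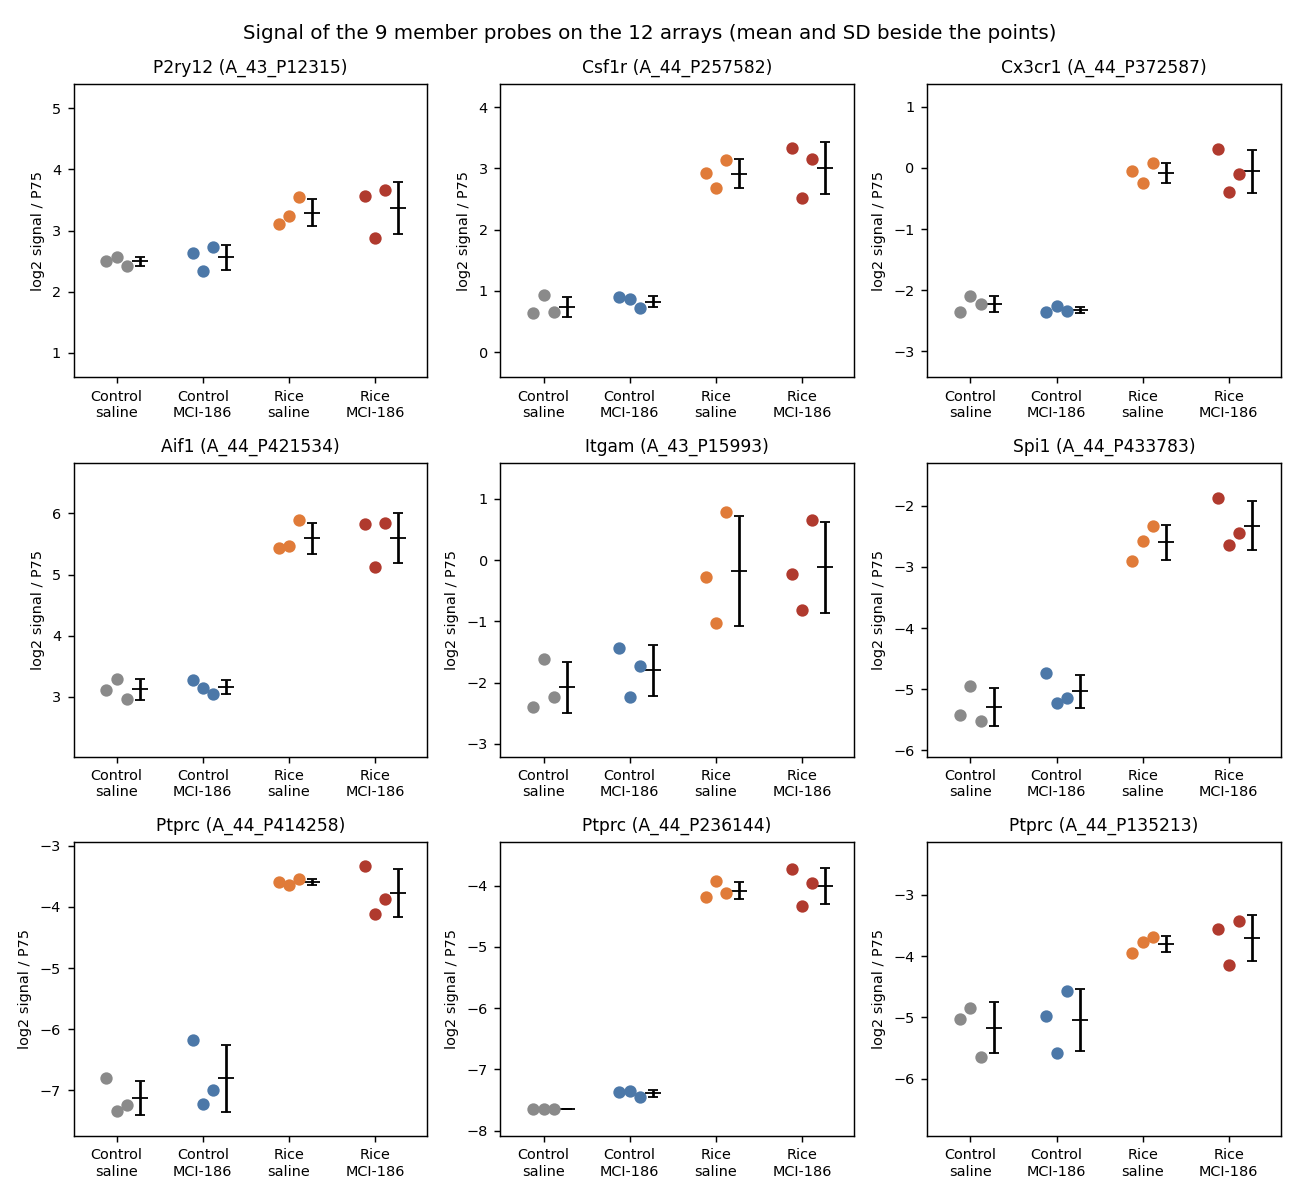
Log2 signal over the 75th percentile of the array (y axis, each panel spanning the same number of log2 units) for each of the 9 probes in the 4 groups, with 1 point per pup and the mean and SD of each group's 3 pups beside them. The 6 injured pups lie above the 6 controls in every panel, by the narrowest margin for P2ry12.

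Spi1, which encodes the factor PU.1, was near background in controls and clearly measured after injury. The log2 signals of its probe A_44_P433783 were -5.42, -4.94 and -5.52 in saline controls and -4.73, -5.22 and -5.15 in controls given MCI-186. Injured pups read -2.90, -2.58 and -2.33 with saline and -1.88, -2.65 and -2.45 with MCI-186. Every injured pup was thus at least 1.84 above the highest control, and 5 of the 6 controls were well above background. Spi1 rose by 2.69 ± 0.24 with saline and by 2.71 ± 0.24 with MCI-186 (SE, n = 3 pups per group), with limma adjusted p of 2.19e-05 and 2.04e-05. With normexp background correction the log2 changes were 1.31 and 1.41, in the same direction and past the threshold.

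Other blood-lineage factors were read beside Spi1. Cebpa, which directs myeloid commitment, rose by 1.05 ± 0.24 in the saline arm (limma adjusted p = 0.00467), and Runx1, a factor needed for definitive blood formation, by 1.33 ± 0.18 (limma adjusted p = 0.00038). From a list of 11 factors related to PU.1 or working with it, 7 were tested. In the saline arm 4 were called higher and 1 lower (19.4% and 30.1% over all tested probes), and in the MCI-186 arm 3 and 1 (20.4% and 31.4%). The median change of the 7 was 0.64 and 0.46. Cebpb, a regulator of inflammatory genes, led them at 1.85 ± 0.15 (limma adjusted p = 1.47e-05), followed by the ETS factor Elf1 at 1.52 ± 0.20 (limma adjusted p = 0.000294). The ETS factor Ets2 fell by 0.60 ± 0.15 (limma adjusted p = 0.00711), while Fli1 rose by 0.97 ± 0.27 (limma adjusted p = 0.0125). Irf4 was not well above background on any array.

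PU.1 binds purine-rich DNA with the core GGAA, and 2 such words of 6 letters, GAGGAA and GGAAGT, were searched on both strands of promoter windows (250 bases before to 50 after the transcript start) taken from RefSeq, build GRCr8. Windows were found for 4 of the 7 genes. They are shown here because these genes rose together with Spi1, with GAGGAA and GGAAGT, or their reverse complements TTCCTC and ACTTCC, in capitals.
Csf1r, chr18:56834129-56834428, plus strand: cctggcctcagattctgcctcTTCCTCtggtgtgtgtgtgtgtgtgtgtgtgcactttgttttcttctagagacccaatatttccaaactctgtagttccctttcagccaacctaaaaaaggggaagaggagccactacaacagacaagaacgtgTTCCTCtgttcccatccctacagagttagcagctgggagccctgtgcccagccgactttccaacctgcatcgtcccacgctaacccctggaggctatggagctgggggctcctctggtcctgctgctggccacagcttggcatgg
Cx3cr1, chr8:128677017-128677316, minus strand: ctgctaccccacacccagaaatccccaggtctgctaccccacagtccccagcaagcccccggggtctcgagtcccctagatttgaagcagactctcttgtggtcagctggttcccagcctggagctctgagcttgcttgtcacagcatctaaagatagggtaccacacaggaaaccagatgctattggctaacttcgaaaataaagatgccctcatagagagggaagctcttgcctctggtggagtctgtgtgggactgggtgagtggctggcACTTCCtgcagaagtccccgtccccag
Itgam, chr1:192089342-192089641, plus strand: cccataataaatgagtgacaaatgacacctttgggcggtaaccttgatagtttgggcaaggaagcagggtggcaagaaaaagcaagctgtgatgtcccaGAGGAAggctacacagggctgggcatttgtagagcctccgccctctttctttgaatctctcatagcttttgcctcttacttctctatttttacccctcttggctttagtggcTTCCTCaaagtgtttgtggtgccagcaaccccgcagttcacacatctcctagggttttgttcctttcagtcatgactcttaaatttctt
Ptprc, chr13:52259697-52259996, minus strand: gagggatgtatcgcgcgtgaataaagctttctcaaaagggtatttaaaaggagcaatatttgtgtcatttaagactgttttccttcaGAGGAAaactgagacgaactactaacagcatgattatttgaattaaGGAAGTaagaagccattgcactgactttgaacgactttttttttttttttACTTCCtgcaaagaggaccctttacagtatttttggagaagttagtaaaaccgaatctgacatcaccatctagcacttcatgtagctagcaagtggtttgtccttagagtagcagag

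Each of the 4 windows held at least 1 of the words. GAGGAA stood in 3 of them, beginning at -229 and -95 in Csf1r, at -151 and -39 in Itgam and at -163 in Ptprc, counted from the transcript start. GGAAGT stood in Ptprc at -117 and -67 and in Cx3cr1 at 24. These words are common, as 27.6% of 33469 rat promoter windows of this length held GAGGAA, 22.6% held GGAAGT and 42.3% held at least 1 of them. The TATA word TATAAA, which 14.2% of all windows held, stood in none of the 4. A match describes the letters of the window and is not evidence of binding. Each window follows a transcript start, which need not be the outermost start of its gene. The Cx3cr1 window lies wholly inside the annotated gene and the Csf1r window mostly inside its own, so neither is sequence upstream of the whole gene.

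Csf1r encodes the receptor for the growth factors CSF1 and IL-34, on which microglia depend. Its probe A_44_P257582 read 0.63, 0.93 and 0.66 in saline controls and 0.90, 0.86 and 0.72 in controls given MCI-186. In injured pups it read 2.92, 2.68 and 3.14 with saline and 3.34, 2.52 and 3.16 with MCI-186. The groups were separated by at least 1.59, a margin wider than the range of 0.82 within the injured pups. Csf1r rose 4.50-fold with saline (95% interval 3.32 to 6.10) and 4.54-fold with MCI-186 (3.35 to 6.16), with limma adjusted p of 2.91e-05 and 2.65e-05. Its ligand Csf1 rose as well, by 2.28 ± 0.16 and 2.25 ± 0.16 on the log2 scale (limma adjusted p = 6.87e-06 and 7.09e-06), and by 2.51 and 2.20 at its other probe. The second ligand, Il34, was not analysed here.

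Cx3cr1 changed by about as much as Csf1r, while its ligand moved the other way. Probe A_44_P372587 read -2.36, -2.10 and -2.22 in saline controls and -2.36, -2.26 and -2.34 in controls given MCI-186. Injured pups read -0.06, -0.25 and 0.08 with saline and 0.31, -0.39 and -0.10 with MCI-186. The lowest injured pup stood 1.71 above the highest control. Cx3cr1 rose by 2.15 ± 0.16 and 2.26 ± 0.16 (limma adjusted p = 8.68e-06 and 6.63e-06). Fractalkine, Cx3cl1, a chemokine made by neurons, fell by 0.86 ± 0.20 in each arm (limma adjusted p = 0.0054 and 0.00485), with -1.12 and -1.02 at its other probe.

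P2ry12 had the smallest change of the 7 genes. Its probe A_43_P12315 read 2.50, 2.57 and 2.42 in saline controls and 2.63, 2.34 and 2.73 in controls given MCI-186, against 3.11, 3.23 and 3.54 in injured pups with saline and 3.57, 2.88 and 3.66 with MCI-186. The groups did not overlap, but the lowest injured pup, Rice MCI-186 replicate 2, was only 0.15 above the highest control. P2ry12 rose by 0.80 ± 0.20 in both arms (limma adjusted p = 0.00789 and 0.00722), or 1.74-fold with 95% intervals of 1.28 to 2.37. P2ry13, a related ADP receptor that microglia also express, rose by 1.19 ± 0.22 and 1.12 ± 0.22 (limma adjusted p = 0.00155 and 0.0019).

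Aif1 encodes the calcium- and actin-binding protein Iba1, the usual stain for microglia and macrophages. Probe A_44_P421534 read 3.11, 3.29 and 2.96 in saline controls and 3.27, 3.15 and 3.04 in controls given MCI-186. It read 5.43, 5.47 and 5.89 in injured pups with saline and 5.83, 5.12 and 5.84 with MCI-186. The lowest injured pup was 1.83 above the highest control, and no spot of a member probe was saturated. Aif1 rose 5.55-fold with saline (95% interval 4.09 to 7.53) and 5.43-fold with MCI-186 (4.00 to 7.36), with limma adjusted p of 1.26e-05 and 1.34e-05.

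Itgam, the alpha chain of the complement receptor CR3, was the least uniform member among the injured pups. Probe A_43_P15993 read -2.40, -1.62 and -2.23 in saline controls and -1.43, -2.24 and -1.73 in controls given MCI-186. Injured pups read -0.28, -1.02 and 0.78 with saline and -0.22, -0.81 and 0.66 with MCI-186. The SD over the 3 injured pups was 0.90 with saline and 0.74 with MCI-186, while no other member exceeded 0.43 in an injured group. Itgam rose by 1.90 ± 0.47 and 1.68 ± 0.47 (limma adjusted p = 0.00736 and 0.0125). Its partner chain Itgb2 rose more evenly, by 3.42 ± 0.21 and 3.48 ± 0.21 (limma adjusted p = 3.69e-06 and 2.78e-06). Where a probe is below background in controls, a fold is a lower bound, taken against the dimmest signal still well above background on each control array (or the probe's own, if higher). Such bounds apply to the processed signal and not to normexp values. Itgal, the alpha chain that pairs with Itgb2 in LFA-1, was not well above background in any control, so it was tested only through the injured groups. It was higher after injury by at least 18.4-fold with saline and 13.2-fold or more with MCI-186 (limma adjusted p = 2.09e-06 and 1.51e-06). Icam1, an endothelial and glial ligand of both integrins, rose by 2.67 ± 0.16 and 2.39 ± 0.16 (limma adjusted p = 3.48e-06 and 4.36e-06).

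Ptprc, the phosphatase CD45 of all nucleated blood cells, had 3 probes that differed in size of change. Probe A_44_P414258 was not well above background in any control, where it read -6.80, -7.34 and -7.23 with saline and -6.18, -7.22 and -7.00 with MCI-186, and injured pups read -3.59, -3.65 and -3.55 with saline and -3.34, -4.11 and -3.87 with MCI-186. At this probe Ptprc was at least 4.66-fold higher in saline pups and at least 3.36-fold higher in MCI-186 pups (limma adjusted p = 9.65e-06 and 2.36e-05). These bounds hold for the processed signal only, as normexp gave log2 changes of 1.04 and 0.77. Probe A_44_P236144 was likewise not well above background in controls and gave at least 3.34-fold and at least 2.86-fold (limma adjusted p = 4.61e-07 and 8.03e-07). With normexp its log2 changes were 0.81 and 0.75. Its saline controls all read -7.64, the floor set on low signals, so they had no spread for limma to measure. Probe A_44_P135213, annotated to another transcript of the gene, was well above background in 3 of 6 controls. It read -5.03, -4.84 and -5.64 in saline controls and -4.98, -5.58 and -4.57 in controls given MCI-186. Injured pups read -3.95, -3.77 and -3.69 with saline and -3.56, -4.14 and -3.43 with MCI-186. The groups did not overlap at this probe either, and the change was 1.37 ± 0.28 and 1.33 ± 0.28 (limma adjusted p = 0.00301 and 0.00311), or 0.49 and 0.42 with normexp. Lyn, a kinase of the Src family that CD45 regulates, rose by 2.38 ± 0.17 and 2.55 ± 0.17 (limma adjusted p = 6.61e-06 and 4.42e-06). Its relative Fyn, which neurons and oligodendrocytes also use, did not pass, at -0.08 and -0.18 (limma adjusted p = 0.482 and 0.102).

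**Figure D2:**
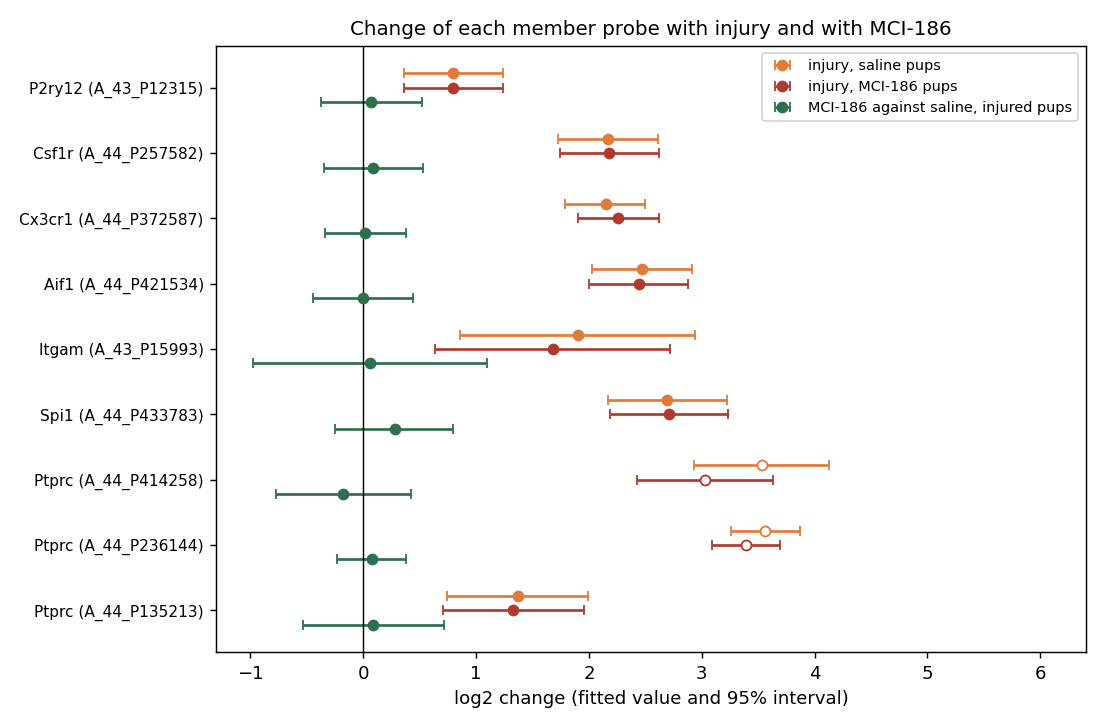
Fitted log2 change (x axis) with its 95% interval for each of the 9 probes, for injury in saline pups, for injury in MCI-186 pups and for MCI-186 against saline in injured pups. Open symbols mark injury changes of probes not well above background in controls, which are not measured sizes. The injury values of both arms lie together at each probe, with P2ry12 lowest, and all MCI-186 intervals include 0.

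The members did not all change by the same amount. Averaged over both arms, the injury change was 0.80 for P2ry12, 1.79 for Itgam, 2.18 for Csf1r, 2.20 for Cx3cr1, 2.46 for Aif1, 2.70 for Ptprc and 2.70 for Spi1 on the log2 scale. Each of the 21 pairs was compared by a two-sided exact permutation test within arms (400 arrangements, smallest possible p of 0.005), adjusted by Benjamini-Hochberg over the pairs, and 13 passed. P2ry12 differed from each of the other 6 genes. It rose by 1.38 less than Csf1r, 1.66 less than Aif1, and 1.90 less than Ptprc or Spi1, and its fold was smaller than that of Cx3cr1 by a factor of 2.65 (exact permutation p = 0.005 and adjusted p = 0.0117 for each). It rose by 0.99 less than Itgam (exact permutation p = 0.01, adjusted p = 0.0191). The value for Ptprc used all 3 probes, of which 2 lacked a control signal well above background, so its 2.70 is not a measured size, and with normexp background correction P2ry12 rose by 0.10 more than Ptprc (exact permutation p = 0.44, adjusted p = 0.462). The difference from Spi1 also shrank with normexp, where P2ry12 rose by 0.55 less (exact permutation p = 0.01, adjusted p = 0.014). With normexp Spi1 and Ptprc also rose by less than Csf1r, Cx3cr1 and Itgam, so their place at the top of this order depended on the background correction.

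P2ry12 and Aif1 kept nearly the same distance in all injured pups. With each gene set to its mean over the 6 controls, P2ry12 minus Aif1 was between -0.20 and 0.29 in controls and between -1.73 and -1.57 in the 6 injured pups. For P2ry12 minus Csf1r, controls lay between -0.27 and 0.26 and injured pups between -1.56 and -1.19. P2ry12 minus Itgam was far less even, between -0.41 and 0.43 in controls and between -1.70 and -0.22 in injured pups, so these ranges overlapped. Aif1 also rose by 0.28 more than Csf1r (exact permutation p = 0.005, adjusted p = 0.0117). Among neighbours in the order above, Itgam and Csf1r (0.38 apart), Csf1r and Cx3cr1 (0.03), Cx3cr1 and Aif1 (0.25), and Aif1 and Ptprc (0.24) did not pass, with exact permutation adjusted p of 0.222, 0.714, 0.063 and 0.0919. Ptprc and Spi1 had an exact permutation adjusted p of 0.995.

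Within the injured cortex, Rice MCI-186 replicate 2 had the lowest injured value at 7 of the 9 probes, the exceptions being Itgam and Spi1. The same pup also had the smallest mean fall of the 11 excitatory neuron genes, at -0.38, whereas Rice saline replicate 3 and Rice MCI-186 replicate 3 were at -1.06 each. Itgam had its highest values in the latter pair of pups. The mean of 6 tested neutrophil genes was 3.67 in Rice saline replicate 3 and between 1.64 and 2.13 in the other 5 injured pups. Without Rice saline replicate 3 the change of Itgam in the saline arm was 1.43. The part of neuronal or neutrophil genes in these values was not tested.

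**Figure D3:**
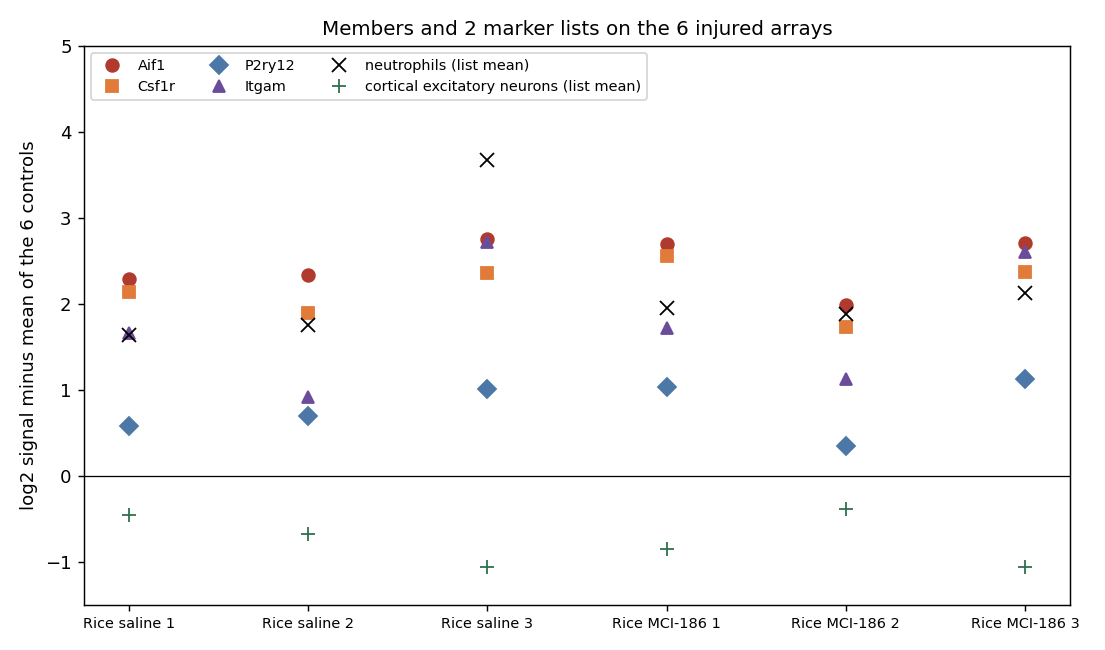
Log2 signal minus the mean of the 6 controls (y axis) for 4 members and for the mean of 2 marker lists in each of the 6 injured pups (x axis). P2ry12 stays below Aif1 and Csf1r in all 6 pups, Itgam moves apart from them, and the neutrophil list is highest in Rice saline replicate 3.

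No member was called between MCI-186 and saline. In injured cortex 0 of 9 probes were called by limma, 0 had an unadjusted p under 0.05, and both groups overlapped at all 9. Over all 28517 tested probes 0% were called, and 728 had an unadjusted p under 0.05. The fitted difference, MCI-186 minus saline, was 0.00 for Aif1 (95% interval -0.44 to 0.44), 0.02 for Cx3cr1 (-0.34 to 0.38), 0.07 for P2ry12 (-0.37 to 0.52), 0.09 for Csf1r (-0.35 to 0.53) and 0.28 for Spi1 (-0.25 to 0.80). For Itgam it was 0.06 with an interval of -0.98 to 1.10, so that a change of about 2-fold either way lies within it. In control cortex 0 of 9 probes were called by limma and 0 had an unadjusted p under 0.05, against 0.126% of all tested probes called (0.0316% higher and 0.0947% lower, with 2433 probes at an unadjusted p under 0.05). Controls given MCI-186 all lay above the saline controls at 1 of the 9 probes, A_44_P236144, as at 12.5% of all tested probes in this direction. That probe was not well above background in any control, and its saline controls were all at the floor of -7.64. The fitted differences in control cortex ran from -0.09 for Cx3cr1 to 0.32 for Ptprc at A_44_P414258, also not well above background in any control. The injury effects of both arms were also compared directly. No member probe was called by limma (0 of 9, none at an unadjusted p under 0.05), against 0.0175% of all tested probes (1182 at an unadjusted p under 0.05). The difference, MCI-186 arm minus saline arm, was 0.00 for P2ry12 (-0.62 to 0.63), 0.01 for Csf1r (-0.61 to 0.63), -0.03 for Aif1 (-0.65 to 0.59), 0.02 for Spi1 (-0.72 to 0.76) and 0.12 for Cx3cr1 (-0.39 to 0.62). Wider intervals were found for Itgam, at -0.22 (-1.69 to 1.25), and for Ptprc, at -0.50 (-1.35 to 0.35) with A_44_P414258 and -0.04 (-0.92 to 0.85) with A_44_P135213. The remaining Ptprc probe, A_44_P236144, gave -0.18 (-0.60 to 0.25). Neither A_44_P236144 nor A_44_P414258 was well above background in any control, so their differences between arms are not measured sizes. The interval of A_44_P236144 rests in part on saline controls at the floor, which had no spread.

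Other genes that mark resting microglia rose in most cases but by less uniform amounts. Of 25 genes on this list, written like the others with earlier results of these data known, 19 had a named probe and 18 were tested. In the saline arm 14 were called higher and 0 lower (19.4% and 30.1% over all tested probes). In the MCI-186 arm 13 were called higher and 1 lower (20.4% and 31.4%). Their median change was 1.11 and 1.20. The lowest p in the saline arm belonged to Gpr84 (3.04 ± 0.20, limma adjusted p = 4.58e-06), a receptor also known to be induced in activated microglia, and to the lipid receptor Trem2 (3.46 ± 0.27, limma adjusted p = 9.85e-06), which disease-associated microglia raise. The fructose transporter Slc2a5 followed at 2.39 ± 0.19 and the microglial identity factor Sall1 at 1.92 ± 0.16 (limma adjusted p = 1.07e-05 and 1.6e-05). Tmem119, singled out after its values were seen because it is the gene most used with P2ry12 to tell microglia from other macrophages, did not pass in either arm, at 0.72 ± 0.28 and 0.11 ± 0.28 (limma adjusted p = 0.0538 and 0.766). The one gene called lower was Bin1, a membrane-bending protein that neurons and oligodendrocytes also express, at -0.45 in the MCI-186 arm.

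Genes shared by myeloid cells, or by leukocytes at large, nearly all rose. Of 30 such genes 26 were tested, and 25 were called higher with saline and 24 with MCI-186 (19.4% and 20.4% over all tested probes), with 0 lower in either. Their median change was 2.58 and 2.63, set beside 1.11 and 1.20 for the resting list, and this difference between lists was not tested. Vav1, an exchange factor of blood cells, rose by 3.43 ± 0.18, Itgb2 by 3.42 ± 0.21, the leukocyte GTPase Rac2 by 3.48 ± 0.22 and the signalling adaptor Tyrobp by 3.29 ± 0.22 (limma adjusted p from 2.09e-06 to 4.71e-06 in the saline arm). The gene that did not pass in the saline arm was Coro1a at 0.24. Cybb of this list was tested only through injured groups, so its call was partly set in advance.

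**Figure D4:**
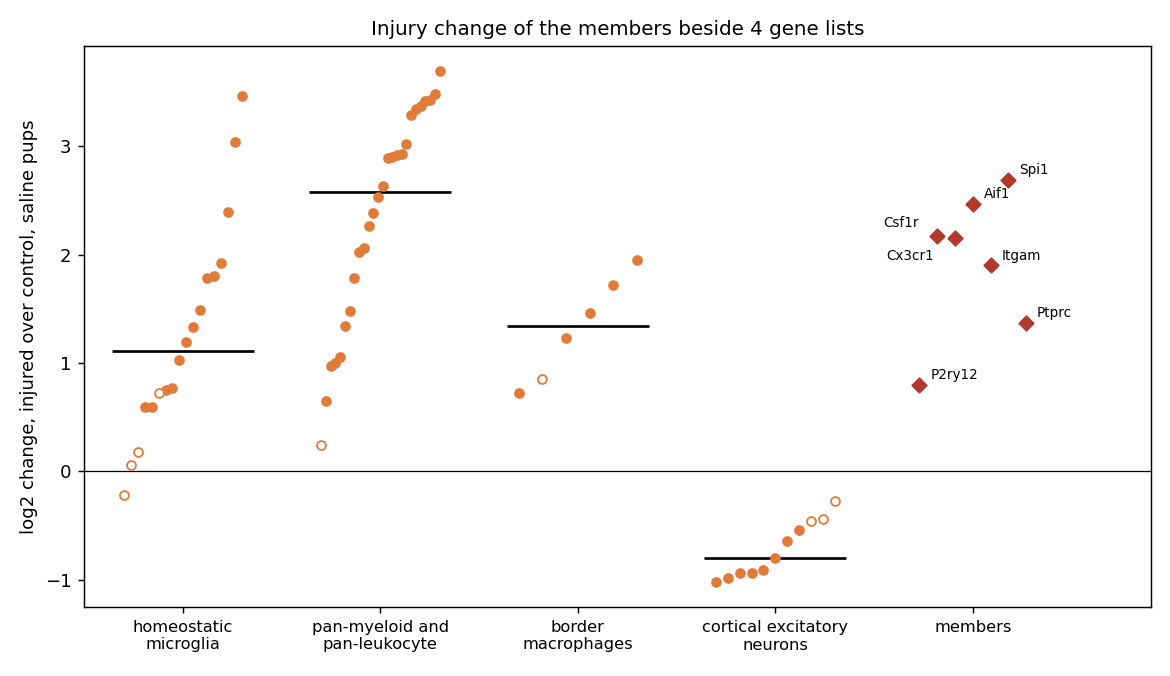
Log2 change between injured and control saline pups (y axis) for each tested gene of 4 lists and for the 7 members, with filled points for genes past limma's adjusted threshold, open points for the others and a line at the median of each list. Ptprc is drawn at its one probe that was above background in some controls (A_44_P135213). P2ry12 lies below the medians of the resting microglia list (1.11) and of the pan-myeloid list (2.58), and the other members lie above the first of these.

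Genes of other white blood cells moved with the members to different degrees. Beside the counts below, 19.4% of all tested probes were called higher with saline and 20.4% with MCI-186, and 30.1% and 31.4% lower. Of 8 border macrophage genes 6 were tested, and 5 were called higher with saline and 6 with MCI-186, with Folr2 at 1.95 ± 0.27 and the mannose receptor Mrc1 at 1.72 ± 0.28 (limma adjusted p = 0.000363 and 0.00088). Cd163 of this list was tested only through injured groups. The summed signal of all named genes of this list, in units of the 75th percentile, was 1.69 to 2.44 in controls and 4.31 to 7.38 in injured pups. Among 12 blood monocyte genes 6 were tested and 5 rose in each arm, led by S100a4 (5.30 ± 0.26, limma adjusted p = 1.26e-06) and Cd44 (3.99 ± 0.20, limma adjusted p = 1.74e-06), both of which reactive glia also express. Their summed signal was 7.99 to 8.92 in controls and 64.1 to 116 in injured pups, of which S100a4 made up 82.4% to 85.1%. Without S100a4 the sum was 5.91 to 6.54 in controls and 11.2 to 19.4 in injured pups. The receptor Ccr2, which defines inflammatory monocytes, was well above background on 0 of 6 injured arrays and 1 control array. Ly6c, a surface protein of inflammatory monocytes in mice, was well above background on all 3 injured saline arrays and on no other array. Its log2 signals were -5.25, -5.14 and -4.03 there, against the floor of -7.64 in each saline control. Ly6c was thus at least 2.01-fold higher (limma adjusted p = 7e-05). Ly6c was tested only through that group, so this call already required a high signal there. With MCI-186 injured pups read -6.57, -6.15 and -6.04, below all 3 injured saline pups, a difference that limma did not call (adjusted p = 0.999). In the MCI-186 arm Ly6c was also called higher after injury (limma adjusted p = 0.0167), though it was not well above background in either group. Neutrophil genes were called higher in 5 of 6 tested cases with saline and 2 of 6 with MCI-186, led by Lcn2 (5.31 ± 0.46, limma adjusted p = 1.96e-05), which reactive astrocytes also make. S100a8, Csf3r and Padi4 were tested only through injured groups, so their calls were partly set in advance. None of the 6 tested neutrophil genes was called between MCI-186 and saline in injured pups. S100a8 read -0.80 in Rice saline replicate 3 but -4.06 and -4.98 in the other injured saline pups. The summed signal of the neutrophil list was 0.43 to 0.60 in controls and 3.73 to 12.7 in injured pups, of which Lcn2 made up 81.6% to 96.5%. Without Lcn2 the sum was 0.25 to 0.41 in controls and 0.40 to 2.09 in injured pups, while Elane, Mmp8 and Cxcr2 were not well above background on any array. Of 5 tested T and NK cell genes 4 rose and 1 fell in each arm. Cd8b was tested only through injured groups. Cd8a was not well above background in any control, so it too was tested only through the injured groups. It was at least 8.49-fold higher with saline and at least 10.3-fold higher with MCI-186 (limma adjusted p = 6.67e-06 and 4.25e-06). The CD3 chain gene Cd3g rose by 1.33 ± 0.33 in saline pups (limma adjusted p = 0.00796). The summed signal of the T and NK cell list was 1.72 to 2.25 in controls and 1.62 to 2.19 in injured pups. That sum was mostly the kinase gene Zap70, the 1 that fell, at 82.6% to 89.2% in controls and 37.1% to 64.0% in injured pups. Without Zap70 it was 0.21 to 0.39 in controls and 0.65 to 1.35 in injured pups. The T cell receptor chain genes Cd3e and Cd247, and also Gzma, were not well above background on any array. Of the other genes not tested, Cd2 was well above background in 3 controls and 0 injured pups, and Ncr1 in 1 and 0. Cd5 was so in 0 controls and 3 injured pups, and Prf1 in 0 and 2. The part of these cells in the members' changes was not tested.

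Excitatory neuron genes fell while the members rose. Of 11 tested, 8 fell and 0 rose in each arm, beside 30.1% and 31.4% of all tested probes called lower. In the saline arm the synaptic vesicle genes Syt1 and Snap25 were at -0.91 ± 0.17 and -0.94 ± 0.23, and the kinase gene Camk2a at -0.98 ± 0.21 (limma adjusted p = 0.00197, 0.00696 and 0.00315). Among 7 astrocyte genes 4 rose and 2 fell in the saline arm (19.4% and 30.1% over all tested probes). Gfap was at 4.52 ± 0.20 (limma adjusted p = 8.5e-07) and the glycolytic aldolase gene Aldoc at -0.54 ± 0.08 (limma adjusted p = 0.000448).

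The genes whose pattern over the 12 arrays lay nearest to the members were looked up among 10900 named probes well above background on all arrays. Each gene was set to its mean in the saline controls, and nearness was the mean absolute log2 difference over the 12 arrays, given as a description. Nearest to the mean of the 5 members measured on all arrays were Psme1, a subunit of the proteasome activator (0.0753), Spsb2 (0.0815), the phagosomal metal transporter Slc11a1 (0.0861), the lipid-presenting Cd1d1 (0.0885) and Sall1 (0.0888). Csf1r was nearest to Nckap1l, an actin regulator of blood cells (0.0674), and Aif1 to the pattern receptor Tlr2 (0.0704). Itgam was less close to its nearest gene, Plac8 (0.208). No nearest gene is given for Spi1 and Ptprc, whose probes were not well above background in all controls.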

How the data were processed

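Total RNA (500 ng) was labelled with Cy3, per the labels' protocols. The deposited scanner files hold processed spot intensity on a linear scale, written by Feature Extraction (Agilent, version 9.5.3.1, per the file headers). The authors' deposited value table holds log2 values that matched the recomputed ones (each probe set to its median) at a correlation of at least 0.998, with column medians of -0.121 to 0.121, so its rows appear centred. No source used here gives the steps behind that table.

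Signals were divided by the array's 75th percentile over spots that were not controls, floored at 0.005 and put on the log2 scale. Spots marked as controls or outliers were dropped and spots of a probe averaged. Probes were named through RefSeq accessions of assembly GRCr8 (15184 of 41012 probes). The array's own annotation follows an older build, so gene coordinates are not printed. Group means of all 12 arrays were fitted with limma 3.58.1 in R 4.3.3 (8 residual and 2.53 prior degrees of freedom), every probe being a feature, with Benjamini-Hochberg adjustment over all tested probes. SE values are limma's moderated ones. Files were read in Python 3.11.15. For list genes the brightest tested probe was used, and up to 4 genes a list with the lowest p in the saline arm were named, plus a fixed set of ligands and partners of the members. The fit was tested on simulated data. Members and lists were chosen with earlier results of these data known. Alternatives were normexp, quantile normalization, other filters, 1 probe a gene, the deposited table, each pup left out, a replicate block, a fit to the compared groups alone and a trended prior. The files hold median rather than mean spot signals, so normexp used those. Same-numbered pups are not stated to be paired. The nearest genes to Cx3cr1 and P2ry12 and 1 blood monocyte gene are not reported here.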

Additional observations from a re-analysis of the deposited data

How the results depend on the processing

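For injury, every member probe stayed higher and called under every alternative that tested it (183 refitted values in each arm). For MCI-186 and for the difference between arms no member probe was called under any alternative, and the small fitted differences changed sign in some, as for P2ry12 in injured pups (-0.07 to 0.32). With the filter that asks for all 12 arrays, 5 of the 9 probes were left (Csf1r, Cx3cr1, P2ry12, Aif1 and Itgam), and 5 were called higher in each arm. Leaving out 1 pup at a time gave 9 called probes each time in either injury arm and 0 for the comparisons of MCI-186 with saline. Sizes of dim probes shrank with normexp, whose added offset of 50 compresses low signals: Spi1 was at 1.31 and 1.41, and Ptprc at 0.49 to 1.04 in the saline arm. P2ry12 ranged from 0.68 to 0.94 in the saline arm and from 0.66 to 1.05 in the MCI-186 arm, and the adjusted p of Itgam in the MCI-186 arm reached 0.0496. Of the 21 pairs of members, 17 passed with normexp and 11 to 15 with 1 pup left out. The order of the members changed with normexp. There Spi1 and the Ptprc probes rose by less than Csf1r (2.11 and 2.09), Cx3cr1 (1.86 and 1.93) and Itgam (1.66 and 1.49). Pairs of these genes with Spi1 or Ptprc thus reversed direction. The replicate block left 9 and 9 called probes for injury and 0 for MCI-186. Over all probes, those called for MCI-186 in controls (9 higher and 27 lower) ranged over the settings from 4 to 26 higher and 8 to 34 lower, and those for the difference between arms (5 higher, 0 lower) from 1 to 10 higher and 0 to 13 lower. Correlations of same-numbered pups' deviations lay between -0.233 and 0.544, so the numbers were not taken as pairs.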

Other observations

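Genes of the cell cycle were also higher in injured cortex. Of 10 genes on this list 8 were tested, and 7 were called higher with saline and 8 with MCI-186 (19.4% and 20.4% over all tested probes), with 0 lower. The replication helicase genes Mcm2 and Mcm6 rose by 1.75 ± 0.20 and 1.11 ± 0.17, and the mitotic kinase gene Cdk1 and its cyclin Ccnb1 by 1.57 ± 0.27 and 1.58 ± 0.29 in saline pups (limma adjusted p from 0.000122 to 0.00161). The mean of the 8 was 1.72 in Rice saline replicate 3 and 0.82 in Rice MCI-186 replicate 2, the injured pups with the highest and the lowest value.

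Of 6 B cell genes, 1 was tested, the receptor gene Cd79b, and it did not pass in either arm (limma adjusted p = 0.154 and 0.518). It read -0.77 in Control MCI-186 replicate 1, while the other 5 controls lay between -7.34 and -5.89 and the injured pups between -4.57 and -3.28.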
